A study of Mus musculus with 12 samples.

Results

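The fibroblast growth factor (FGF) genes of the fetal mouse gonad were followed across 12 single-colour arrays. The set held every gene whose array name is that of an FGF ligand, an FGF receptor, a Sprouty (*Spry*) or Spred (*Spred*) gene, together with *Dusp6*, *Etv1*, *Etv4* and *Etv5*. *Fgf9* was left out. The arrays carried 35 such genes of 29182 in all, namely 20 ligands, 4 receptors, 8 feedback inhibitors and 3 Etv factors. The word ligand stands here for every numbered *Fgf* gene, the intracellular ones that are not secreted included. Of these, 24 had at least 1 probe bright enough to be tested, among 18844 genes tested. The members were chosen by name, and no measured value entered the choice.

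FGFs are secreted or intracellular proteins. The secreted ones bind receptor tyrosine kinases on the cell surface and, through RAS, RAF, MEK and ERK, switch on a small group of target genes. Several of those targets, among them the Sprouty and Spred proteins and the ERK phosphatase DUSP6, restrain the same cascade, so that their RNA is widely used as a readout of FGF activity, while the ETS factors ETV1, ETV4 and ETV5 carry the signal to further genes. In the fetal gonad FGF signalling is best known for its place in testis formation and in the male development of germ cells.

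Gonads were taken at E14.5 (embryonic day), when ovarian germ cells enter meiosis and testicular germ cells do not. The 4 groups of 3 arrays were control testes (*Smad4*Flox/+ StellaMerCreMer *Stra8*+/-), control ovaries, *Smad4* (Stella) ovaries (*Smad4*flox/floxMerCreMer *Stra8*+/−) and double knockout (DKO) ovaries (*Smad4*flox/floxMerCreMer *Stra8*−/−). SMAD4 is the shared partner of the BMP and activin branches of TGF-beta signalling, and STRA8 is needed for entry into meiosis. The control ovaries were of mixed genotype. Replicate 1 was *Smad4*Flox/+ StellaMerCreMer *Stra8*+/-, replicate 2 *Smad4*Flox/+ *Stra8*+/- and replicate 3 *Smad4*Flox/Flox *Stra8*+/-, the last 2 without Cre. All groups except the DKO ovaries thus carried 1 working copy of *Stra8*. All dams had received tamoxifen at E9.5 and E10.5. The Stella element drives the inducible Cre in germ cells only, the deletion varied in efficiency, each array held the RNA of 1 pair of gonads, and the background of the mice was mixed.

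Levels are given on the log2 scale relative to the 75th percentile of each array, so that 0 is a bright probe and -5 a dim one. A level belongs to its own probe, and levels of different genes were not set against each other. A gene was called changed at an adjusted p under 0.05 (limma) with a difference of at least 1.5-fold. In whole gonads, fewer cells of a type and less RNA per cell cannot be told apart. The array's 75th percentile lay between 476 and 997 intensity units, 58.8% to 70.5% of probes were well above background, and no probe was saturated. *Smad4* RNA did not pass the test in the mutants, with a log2 difference from control ovaries of -0.03 (95% interval -0.34 to 0.27) in *Smad4* (Stella) ovaries and -0.13 (-0.43 to 0.18) in DKO ovaries, in whole gonads of which only the germ cells were targeted. *Stra8* was 5.28 to 5.61 in DKO ovaries and 6.16 to 6.71 in control ovaries, through a probe whose place relative to the deleted part is not known here. Sertoli markers summed to between 113 and 124 times the array's 75th percentile in testes and to at most 3.02 in the ovaries, and pregranulosa markers to between 69.7 and 89.2 in the ovaries and to at most 16.7 in testes.

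The signal of each gene came from 60-base probes, of which the first 30 bases are printed for the genes the results turn on. These letters fix which transcript was read, and the positions are in mm9. *Dusp6* was read at chr10:98729985-98730044, *Spry1* at chr3:37543194-37543253, *Etv4* at chr11:101631443-101631502, *Fgf8* at chr19:45811364-45811423 and *Fgf10* at chr13:119580365-119580424. *Fgf21* was read by a pair of probes, the second at chr7:52869305-52869364, and *Fgf11* likewise, the second at chr11:69609760-69609819. *Fgfr2* was read by 3, at chr7:137307455-137307514, chr7:137385966-137386025 and chr7:137306712-137306771. Whether a probe lies in coding sequence or in a UTR was not looked up here.
Dusp6: catttggtggatgcaacaggttgagaggaa
Spry1: agctgagtatttccaacccttcctgtgttt
Etv4: tggaggcaggccaaatctaaaggcagtagc
Fgf8: ggcacagcaaaggggaggggctggggagct
Fgf10: acagcaaatagtgcagacgttggattctta
Fgf11, probe 2: gtaaaataggaggtagattccgagtctagc
Fgf21, probe 2: tttttgggtttccacttatttattacgggt
Fgfr2, probe 1: ctgcctcagtatccacacataaacggcagt
Fgfr2, probe 2: caacaataggacagtgcttattggggagta
Fgfr2, probe 3: gaggactagttaatctattgcttggactta

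Not every member could be measured. The 11 members with no probe bright enough in any group were *Fgf1*, *Fgf3*, *Fgf6*, *Fgf14*, *Fgf15*, *Fgf16*, *Fgf17*, *Fgf20*, *Fgf22*, *Fgf23* and *Spred3*. Of the 24 tested, 17 had a probe well above background on every array of all 4 groups, while *Fgf7*, *Fgf10* and *Spry4* passed through the control testes alone. *Fgf2*, *Fgf21* and *Spry3* passed through testes and *Smad4* (Stella) ovaries, and *Fgf12* through all groups but the control ovaries. Passing only where a member is bright favours a difference, although *Fgf7* and *Spry4* were not called between testes and control ovaries. The counts over the tested members are therefore a description.

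**Figure D1:**
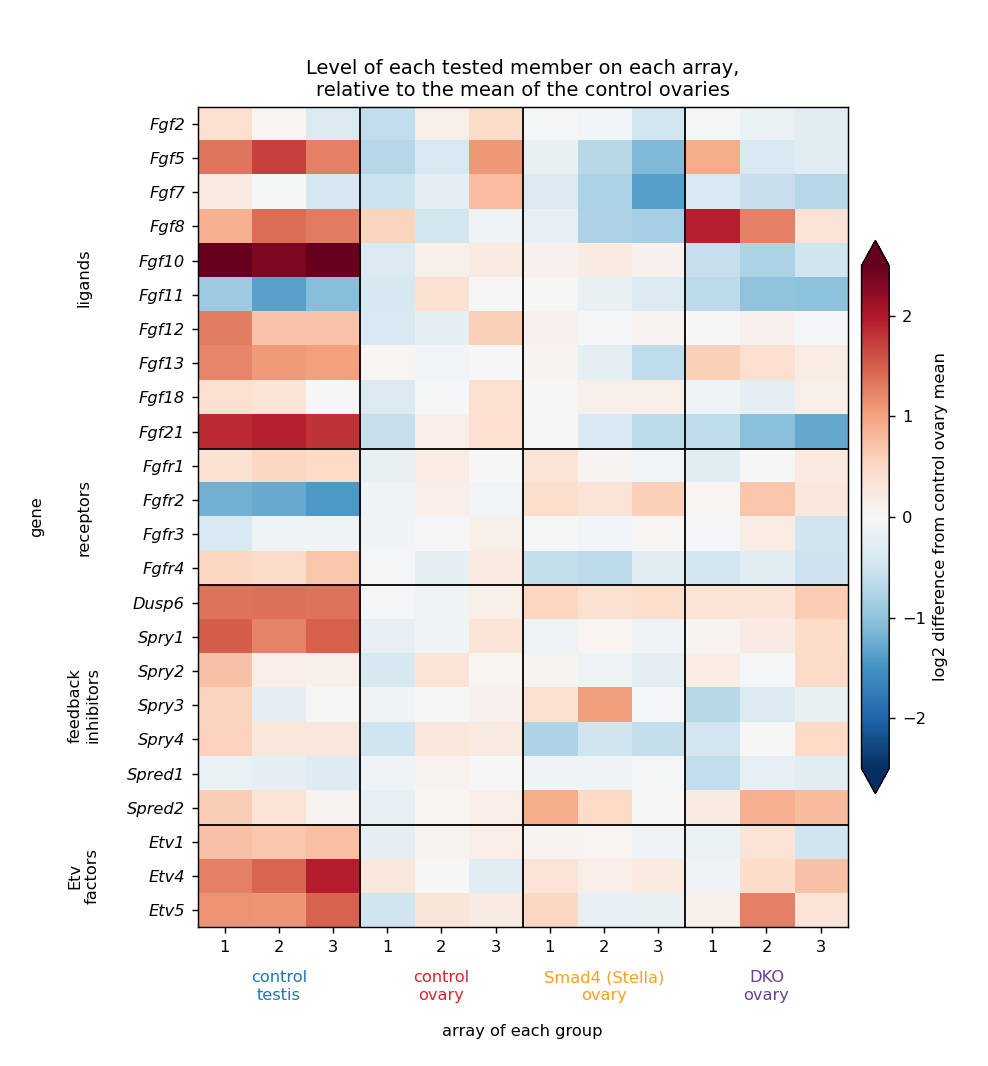
Log2 level of the 24 tested members (rows, by role) on each of the 12 arrays (columns, by group), as the difference from that gene's mean in control ovaries on a colour scale that ends at 2.5 in either direction. The testis columns are red for most ligands, for *Dusp6*, *Spry1* and the 3 Etv factors and blue for *Fgfr2* and *Fgf11*, and the mutant ovary columns stay close to the control ovaries for most rows, with *Fgf8* in DKO ovaries an exception.

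Control testes were first compared with control ovaries, which asks how the set differs between the sexes at E14.5. The ERK feedback gene *Dusp6*, the signalling inhibitor *Spry1*, all 3 Etv factors and 6 of the 10 tested ligands were higher in testes, from 1.64-fold for *Etv1* to 3.66-fold for *Fgf21*, with *Fgf10* known only by a lower bound of 3.10-fold. The receptor *Fgfr2* and the intracellular FGF gene *Fgf11* were lower. In all, 13 of the 24 tested members were called, 11 higher and 2 lower, where 34.0% of all genes tested were called, 17.2% higher and 16.8% lower. The groups did not overlap for 18 of the 24 and for 58.4% of all genes. The median log2 difference was 0.51 over the tested members and 0.02 over all genes.

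Among the ligands, *Fgf8*, a secreted morphogen of several embryonic signalling centres, stood at -1.49, -0.996 and -1.09 in the 3 testes and at -1.83, -2.84 and -2.49 in the 3 control ovaries. Every testis lay above every ovary, and control ovary 1 came closest to the testes. The difference of 1.19 (95% interval 0.34 to 2.05, adjusted p = 0.0255, limma) was called, and it fell under the threshold when testis 2 or 3 or control ovary 2 or 3 was left out. With the slide as a block, which compares the testes with the control ovary on their own slide, it was 0.64 (adjusted p = 0.171).

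*Fgf21*, an endocrine FGF that needs a Klotho co-receptor, stood at -3.94, -3.88 and -4.02 in testes and at -6.39, -5.66 and -5.40 in control ovaries. The groups were far apart, by 1.87 (1.28 to 2.46, adjusted p = 0.00022), although 1 of its 2 probes was not well above background on any ovarian array and the other was so on only 2 of the 3 control ovaries. The dimmer probe thus entered through the testes alone, and its part in this difference and p-value is a description. *Fgf10*, a mesenchymal ligand of FGFR2, was measured in testes only. Its levels were -3.89, -4.14 and -3.83 there, and no ovarian array of any group had it well above background, which puts the testes above the control ovaries by at least 3.10-fold (adjusted p = 7.86e-07). Since it entered the test through the testes alone, the group in which it was bright, its p-values against testes are a description.

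*Fgf13* and *Fgf12*, intracellular FGFs that bind sodium channels and are not secreted, were higher in testes by 1.11 (0.73 to 1.48, adjusted p = 0.000393) and 0.90 (0.38 to 1.43, adjusted p = 0.00943). *Fgf13* lay between -2.82 and -2.61 in testes and between -3.91 and -3.79 in control ovaries, with all 3 of its probes higher in testes by 0.60 to 1.92. The *Fgf13* probe with 0.80 passed the filter through the testes alone, so its part in the mean and the p-value is a description. *Fgf11*, of the same intracellular branch, went the other way. It stood at -2.28, -2.73 and -2.44 in testes and -1.76, -0.98 and -1.36 in control ovaries, a difference of -1.11 (-1.56 to -0.66, adjusted p = 0.00114). The 2 *Fgf11* probes disagreed in size, with -1.90 for the second and brighter one and -0.32 for the first.

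*Fgf5*, a secreted ligand known from the hair cycle, stood at -2.48, -2.10 and -2.55 in testes and at -4.52, -4.20 and -2.72 in control ovaries. The difference of 1.43 (0.38 to 2.49, adjusted p = 0.0296) was lost when any testis or control ovary 1 or 2 was left out. Control ovary 3 was the highest of its group for *Fgf5*, *Fgf7* and *Fgf12*. It was so too for other members, such as *Dusp6*, *Fgf21*, *Fgfr4* and *Spry1*, though not for all. This array was also the 1 array with a high sum of skeletal muscle markers, 13.9 against at most 0.873 on the other 11. The part of these markers in the values was not tested. *Fgf2* (0.03, -0.57 to 0.62), *Fgf7* (-0.08, -0.84 to 0.67) and *Fgf18* (0.24, -0.17 to 0.65), secreted ligands of stromal and skeletal tissues, did not pass the test.

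Of the 4 receptors, *Fgfr2*, whose product is needed for Sertoli cell and testis development, stood at -3.06, -3.12 and -3.29 in testes and at -1.96, -1.71 and -1.92 in control ovaries. All testes lay below all ovaries, by 1.30 log2 units on average (difference -1.30, -1.65 to -0.94, adjusted p = 8.31e-05). The 3 probes gave -1.58, -0.93 and -1.38, and the mean over them was -1.20 against the control ovary on the same slide. *Fgfr1* was 0.47 higher (0.12 to 0.82, adjusted p = 0.0318) and *Fgfr4* 0.56 higher (0.23 to 0.89, adjusted p = 0.0106) in testes, both under the 1.5-fold threshold, which *Fgfr4* passed without testis 1 or 2 or control ovary 3. *Fgfr3* differed by -0.20 (-0.56 to 0.15) and did not pass.

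Of the feedback inhibitors, *Dusp6*, the cytoplasmic phosphatase that switches ERK off, stood at 3.69, 3.71 and 3.70 in testes and at 2.29, 2.24 and 2.50 in control ovaries, 2.57-fold higher in testes (log2 difference 1.36, 1.12 to 1.60, adjusted p = 4.63e-06). *Spry1*, which restrains signalling between the receptor and ERK, stood at 1.43, 1.15 and 1.42 in testes and at -0.30, -0.20 and 0.23 in control ovaries, 2.67-fold higher (1.42, 1.07 to 1.77, adjusted p = 3.99e-05). These calls held under every alternative tried. *Spry2* (0.35, -0.15 to 0.84), *Spry3* (0.10, -0.52 to 0.71), *Spry4* (0.38, -0.19 to 0.95), *Spred1* (-0.24, -0.50 to 0.03) and *Spred2* (0.35, -0.21 to 0.91) did not pass. Thus 2 of 7 feedback inhibitors were called, where 34.0% of all genes tested were.

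*Etv4*, 1 of the 3 ETS factors that FGF signalling induces, stood at -2.47, -2.29 and -1.77 in testes and at -3.46, -3.75 and -4.02 in control ovaries. All 3 testes were above all 3 ovaries, with a difference of 1.56 (1.04 to 2.08, adjusted p = 0.000335). *Etv5*, known also from spermatogonial stem cells, was 1.24 higher (0.52 to 1.95, adjusted p = 0.00947), with 1.67 and 0.80 by its 2 probes. The probe with 1.67 passed the filter through the testes alone, so its part in the mean and the p-value is a description. The probe with 0.80 was well above background on every array. *Etv1* was 0.72 higher (0.30 to 1.13, adjusted p = 0.00935) and stood between -0.96 and -0.89 in testes and between -1.89 and -1.46 in control ovaries. Somatic markers moved with these differences, fetal Leydig markers summing to 63.7 to 72.4 in testes against at most 3.31 in the ovaries and interstitial markers to 15.4 to 17.7 against 6.90 to 9.90. Which cells carried the FGF set was not tested.

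**Figure D2:**
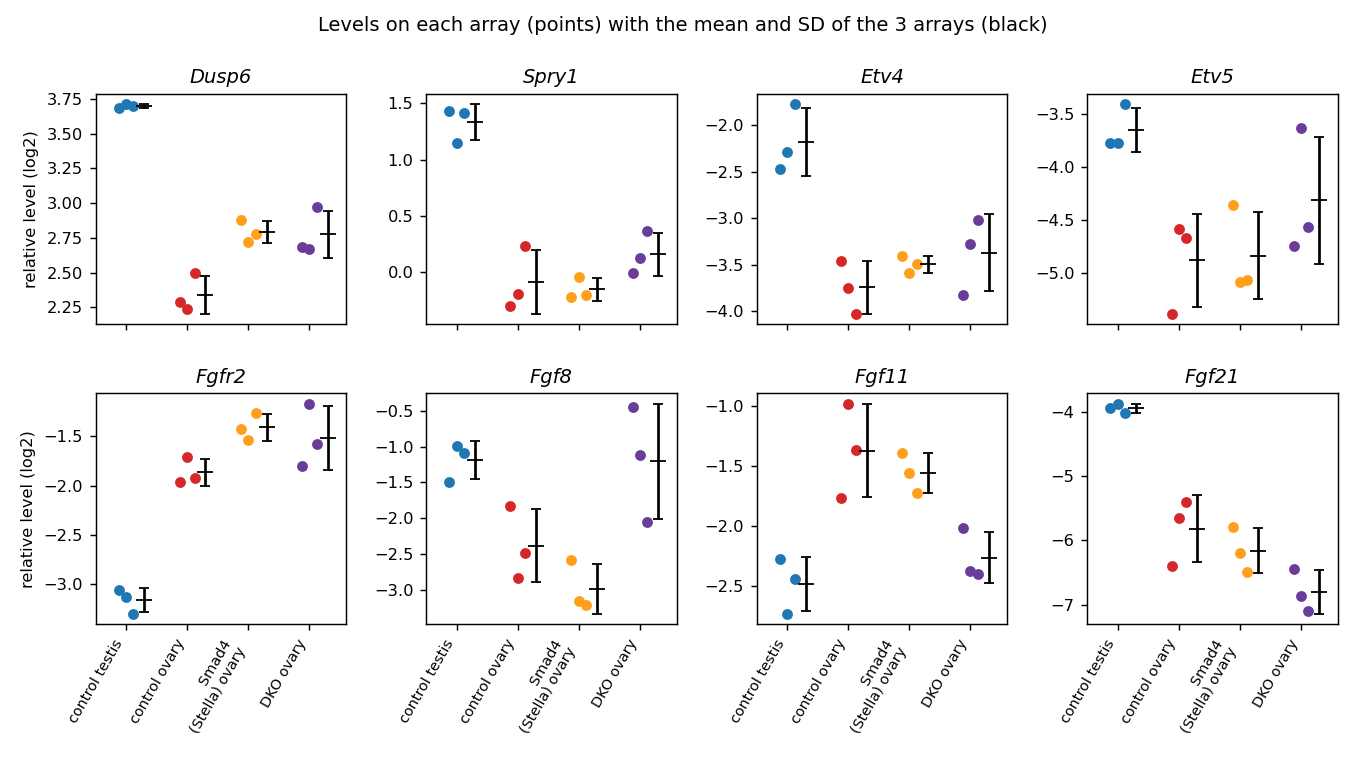
Log2 level relative to the array's 75th percentile (vertical axis) of *Dusp6*, *Spry1*, *Etv4*, *Etv5*, *Fgfr2*, *Fgf8*, *Fgf11* and *Fgf21* in each array of the 4 groups (points), with the group mean and SD (n = 3). *Dusp6*, *Spry1* and *Etv4* in testes lie above every ovary of all 3 ovarian groups, *Fgfr2* in testes lies below all of them, and *Fgf8* in the 3 DKO ovaries spreads from -2.05 to -0.45.

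The *Smad4* (Stella) ovaries were then compared with control ovaries, which asks what losing SMAD4 in germ cells alone does to the set. No member was called, where 0.271% of all genes tested were. At an unadjusted p under 0.05 there were 5 of 24 members and 19.7% of all genes, and 3 members and 28.1% of all genes had groups that did not overlap. The median log2 difference of the tested members was -0.04, against -0.02 over all genes. These groups share no slide and are linked only through the DKO ovaries, which lie on slides of both. With the slide as a block 0 members were called.

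*Dusp6* stood at 2.88, 2.72 and 2.78 in *Smad4* (Stella) ovaries, above the 2.24 to 2.50 of the control ovaries with no overlap. The difference of 0.45 (0.21 to 0.70) had an adjusted p of 0.0866 and did not pass. *Fgfr2* stood at -1.43, -1.54 and -1.26, also above all control ovaries, by 0.45 (0.10 to 0.81, adjusted p = 0.168). *Fgfr4*, a receptor best known from liver and muscle, stood at -3.40, -3.45 and -3.07 and below all control ovaries, with a difference of -0.50 (-0.84 to -0.17, adjusted p = 0.124). The remaining pair with an unadjusted p under 0.05, *Fgf7* (-0.85, -1.60 to -0.09) and *Spry4*, overlapped with the control ovaries, and *Spry4* was not well above background on any *Smad4* (Stella) array. *Fgf8* stood at -2.59, -3.15 and -3.22, overlapping with the control ovaries, with a difference of -0.60 (-1.45 to 0.25).

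The DKO ovaries, which lacked a working copy of *Stra8* besides SMAD4 in germ cells, were compared with the same control ovaries. *Fgf11* and *Fgf21* fell, *Fgf10* was called between groups that both lay below background and is given no fold, and no receptor, feedback inhibitor or Etv factor was called. Thus 3 of 24 members were called, all lower, where 14.7% of all genes tested were called, 6.69% higher and 7.98% lower. The median of the tested members was 0.00 (all genes 0.00), and 9 members and 32.9% of all genes had groups that did not overlap. The count was 1 without control ovary 2 or 3 or DKO ovary 2, and 1 to 4 over all arrays left out. Because both mutants were compared with the same 3 control ovaries, their values are given side by side.

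*Fgf11* stood at -2.02, -2.37 and -2.40 in DKO ovaries, below all 3 control ovaries and overlapping with the testes. It fell by 0.89 (difference -0.89, -1.34 to -0.44, adjusted p = 0.00987), by 1.36 with the second probe and 0.43 with the first. In *Smad4* (Stella) ovaries it stood at -1.39, -1.55 and -1.72, a difference from control of -0.19 (-0.63 to 0.26). On the slide shared by 2 DKO and 2 control ovaries the difference was -1.02.

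*Fgf21* stood at -6.44, -6.86 and -7.11 in DKO ovaries and fell by 0.99 (-1.57 to -0.40, adjusted p = 0.0222). The sign turned to 0.38 after normexp background correction, where the median of all genes was 0.26. Only 1 of the *Fgf21* probes was well above background in DKO ovaries, on 2 of 3 arrays, and the call was lost without control ovary 2 or 3 or DKO ovary 2 or 3.

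*Fgf8* stood at -0.45, -1.12 and -2.05 in the 3 DKO ovaries, the widest spread of the gene in any group (SD 0.81, n = 3). DKO ovaries 1 and 2 lay above all control ovaries and DKO ovary 3 lay among them. The difference from control ovaries of 1.18 (0.33 to 2.03) had an adjusted p of 0.0506 and did not pass. It passed without control ovary 1 (1.46, adjusted p = 0.0299), without DKO ovary 3 (1.60, adjusted p = 0.00812), with the slide as a block (1.88, adjusted p = 0.00351), with the replicate number as a block (adjusted p = 0.0432), and when only probes well above background on all arrays were kept (adjusted p = 0.0357).

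Setting the DKO ovaries against the *Smad4* (Stella) ovaries asks what the loss of *Stra8* adds. *Fgf8* was 3.43-fold higher in DKO ovaries (1.78, 0.93 to 2.63, adjusted p = 0.0147), with all 3 DKO ovaries above the 3 *Smad4* (Stella) ovaries. The call was lost without *Smad4* (Stella) ovary 2 (adjusted p = 0.0640) or 3 (adjusted p = 0.0622) and with the slide as a block, which rests on the 1 DKO ovary of the slide that holds the *Smad4* (Stella) ovaries (0.93, adjusted p = 0.173). The probe was spotted 9 to 10 times on each array and its spots varied by an SD of 0.04 to 0.22. A second *Fgf8* probe was well above background on 1 testis array only and was not used.

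In the same comparison *Fgf13* stood at -3.25, -3.42 and -3.66 in DKO ovaries and at -3.77, -4.09 and -4.48 in *Smad4* (Stella) ovaries, higher by 0.67 (0.29 to 1.05, adjusted p = 0.0298). *Fgf11* was lower by 0.71 (-1.16 to -0.26, adjusted p = 0.0473). The *Fgf13* call was lost without DKO ovary 1 or 2 or *Smad4* (Stella) ovary 2 or 3, and the *Fgf11* call when any 1 of the 6 arrays was left out. With the slide as a block neither was called (*Fgf13* 0.45, adjusted p = 0.347, and *Fgf11* -0.84, adjusted p = 0.0873). With *Fgf10*, again below background in both groups, 4 of 24 members were called, where 8.45% of all genes tested were, 4.38% higher and 4.06% lower. The count of 4 became 0 when *Smad4* (Stella) ovary 2 was left out, and 2 when ovary 3 of that group or DKO ovary 1 or 2 was. Groups did not overlap for 8 members and 31.2% of all genes. *Dusp6* differed by -0.02 between the mutants, with an interval of -0.26 to 0.23.

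Markers of male germ cells were read beside *Fgf8*. Of 7 listed markers 6 were on the arrays. All 6 were higher in every DKO ovary than in any control ovary, where groups did not overlap for 32.9% of all genes. Of the 6, 4 were called higher, where 6.69% of all genes tested were. Their summed level lay between 0.256 and 0.371 times the array's 75th percentile in the controls. It was 3.61, 1.43 and 1.55 after loss of *Smad4* alone, 30.3, 22.6 and 11.7 in DKO ovaries and 16.1 to 24.0 in testes. In *Smad4* (Stella) ovaries the sums were thus above those of the controls, while *Fgf8* was not higher. Of the 6 markers 1 was called higher there, where 0.271% of all genes tested were called. The means of *Dnmt3l* (-5.73 against -4.75 in controls) and *Nodal* (-4.36 against -4.21) were lower, and those of the other 4 higher. The sum was mostly *Egr4*, a zinc finger gene, at 4.87, 4.40 and 3.46 in DKO ovaries, the order in which *Fgf8* stood there. *Dnmt3l* had that order too, whereas *Nanos2*, *Nodal*, *Lefty1* and *Lefty2* were highest in DKO ovary 2. *Nanos2*, the RNA-binding factor that defines male fetal germ cells, stood at -2.18, -2.17 and -3.70 there and was not well above background in any control ovary, nor was *Lefty2*. General germ cell markers summed to 73.2 to 97.4 in DKO ovaries, against 65.3 to 80.6 in the controls and 56.3 to 64.8 with *Smad4* lost alone, and Sertoli markers to at most 2.68 in DKO ovaries. The part of the male germ cell markers in the *Fgf8* value was not tested. *Fgf8* and *Fgf21* are both on the list of male germ-cell-specific genes that the study drew from earlier arrays of other gonads. In DKO ovaries the mean of *Fgf8* stood near that of the testes, with DKO ovary 3 among the control ovaries, while *Fgf21* stood below the control ovaries.

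**Figure D3:**
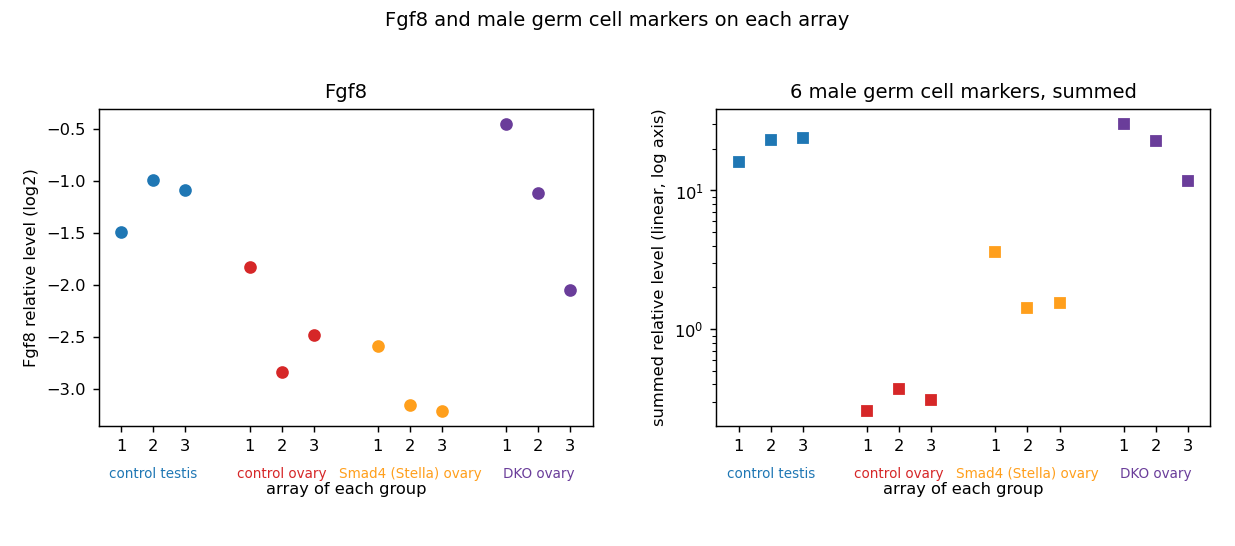
*Fgf8* as a log2 level relative to the array's 75th percentile, and the summed level of 6 male germ cell markers as a multiple of the 75th percentile on a log axis, for each array of the 4 groups (points). In both panels DKO ovary 1 is the highest and DKO ovary 3 the lowest of its group, and the marker sums of control ovaries stay between 0.256 and 0.371. The sum is mostly *Egr4*, and 4 of the 6 markers were highest in DKO ovary 2.

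DKO ovaries were last set against control testes, to ask which members stayed apart from the male level. The receptor *Fgfr2* was 3.12-fold higher in DKO ovaries, and 10 members were lower, among them *Dusp6*, *Spry1*, *Etv1*, *Etv4* and 5 ligands. Thus 11 of 24 members were called, where 25.7% of all genes tested were, 12.7% higher and 13.0% lower. The groups did not overlap for 12 members and 50.5% of all genes. The median was -0.49 over the tested members and -0.02 over all genes. No slide held both groups.

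*Fgf8* was the ligand whose mean differed least, by -0.02, with a wide interval of -0.87 to 0.83. *Fgf11* differed by 0.22 (-0.23 to 0.67). *Dusp6*, at 2.68, 2.67 and 2.97 in DKO ovaries, lay below all testes by 0.93 on average (-1.17 to -0.68, adjusted p = 0.000113), and above the control ovaries by 0.43 (0.19 to 0.68, adjusted p = 0.017), a difference of 1.35-fold that is under the threshold. *Spry1*, at -0.01, 0.12 and 0.37, was lower than in testes by 1.17 log2 units (difference -1.17, -1.52 to -0.82, adjusted p = 0.000251) and 0.25 above the control ovaries (-0.10 to 0.60, not called). *Etv4* was lower by 1.19 (difference -1.19, -1.71 to -0.67, adjusted p = 0.00282) and *Etv1* by 0.83 (-1.24 to -0.42, adjusted p = 0.00584), while *Etv5* differed by -0.67 (-1.38 to 0.05) and did not pass.

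*Fgfr2* stood at -1.80, -1.17 and -1.58 in DKO ovaries against -3.06 to -3.29 in testes, a difference of 1.64 (1.29 to 1.99, adjusted p = 2.83e-05) with 1.36 to 1.95 by its 3 probes. *Fgfr4* was lower in DKO ovaries, at -3.28, -3.05 and -3.33, with a difference of -0.98 (-1.32 to -0.65, adjusted p = 0.000599). *Fgf21* was lower by 2.86 (-3.44 to -2.27, adjusted p = 2.07e-05), *Fgf10* at least 3.25-fold lower (adjusted p = 2.84e-07) and *Fgf13* lower by 0.71 (-1.09 to -0.33, adjusted p = 0.0083), the last, with *Etv4* and *Fgf5*, no longer called with the slide as a block. The dimmer *Fgf21* probe and 1 of the *Fgf13* probes entered through the testes alone, and their part in these differences and p-values is a description. *Fgf5* (-1.34, adjusted p = 0.0476) and *Fgf12* (-0.89, adjusted p = 0.0138) were lower as well. The *Fgf12* value turned to 0.0703 after normexp background correction, where the median of all genes was 0.17. The *Fgf5* call was lost without any 1 testis or DKO ovary 2 or 3, and the *Fgf12* call without testis 1.

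**Figure D4:**
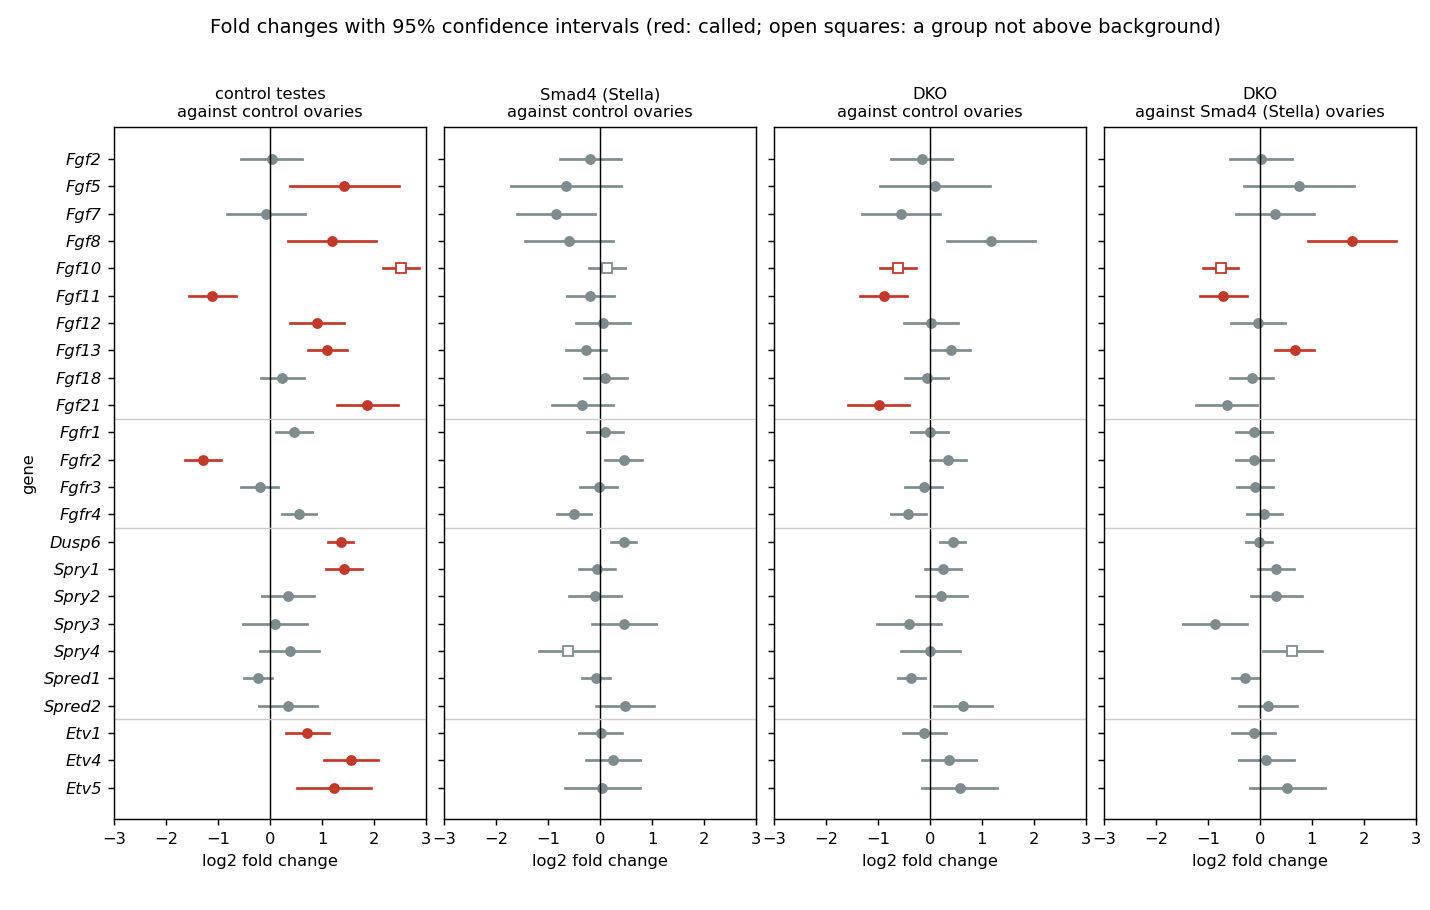
Log2 difference with its 95% interval (horizontal axis) for each tested member (rows) in 4 comparisons, testes against control ovaries, *Smad4* (Stella) against control ovaries, DKO against control ovaries and DKO against *Smad4* (Stella) ovaries, with called members in red and open squares where a group was not above background. The testis panel holds 13 red points and the *Smad4* (Stella) panel none. After normexp background correction the DKO values of *Fgf10* against both ovarian groups and those of *Fgf21* and *Spred1* against control ovaries changed sign. In that setting the median of all genes was 0.26 for DKO against control ovaries and 0.28 against *Smad4* (Stella) ovaries.

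Around the set, 60 genes of FGF signalling were listed in 3 groups, of which 56 were tested. Between testes and control ovaries 23 were called, 12 higher and 11 lower, with a median of 0.15, where 34.0% of all genes tested were called, 17.2% higher and 16.8% lower. Among 17 partners outside the cell 5 were higher, including *Fgfrl1*, a receptor without a kinase domain (1.03), and the heparan sulphate carriers *Gpc1* (0.98) and *Sdc1* (0.82). The 6-O-endosulphatases that trim heparan sulphate moved in opposite directions, *Sulf2* higher by 1.11 and *Sulf1* lower in testes (-1.85).

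Among 24 genes of the relay from RAS to ERK 3 were higher, including *Mapk3*, which encodes ERK1 (0.999), and 5 lower, including *Braf* (-0.92, but -0.46 with an adjusted p of 0.0938 without the filter on dim probes) and *Araf* (-1.01). The *Araf* value was -0.05 with its brightest probe alone (adjusted p = 0.762) and was not called with the slide as a block (adjusted p = 0.0717). Among 15 further genes that ERK induces or that restrain it 4 were higher, including the nuclear ERK phosphatase *Dusp4* (1.77) and the immediate early gene *Egr1* (1.38), and 4 lower, including *Fos* (-1.23). In this comparison 17.2% of all genes tested were called higher and 16.8% lower.

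Between DKO and control ovaries 5 of the 56 were called, where 14.7% of all genes tested were. *Dusp4* was higher by 2.09 (adjusted p = 0.00104), with a mean of -0.26 in DKO ovaries against -2.34 in control ovaries, and *Egr2* by 1.0 (adjusted p = 0.0231), the latter not called without control ovary 2 or 3 or DKO ovary 2. Among the 3 that were lower, *Braf* differed by -0.76, a call lost without the filter on dim probes (-0.45, adjusted p = 0.173). *Fos* differed by -0.80, which was no longer called with the slide as a block (-0.47, adjusted p = 0.202) or without control ovary 1 or 3 or DKO ovary 2 or 3. The *Fos* value changed sign to 0.0977 after normexp background correction, where the median of all genes was 0.26. *Dusp4* stood at a mean of -1.38 in *Smad4* (Stella) ovaries, 0.96 above control (0.25 to 1.66, adjusted p = 0.152), and 1.13 below DKO ovaries (adjusted p = 0.0446). That last call was lost with the slide as a block (adjusted p = 0.140), with the replicate number as a block (adjusted p = 0.0754), without the filter, with the brightest probe, and without DKO ovary 2 or 3, *Smad4* (Stella) ovary 2 or 3, control ovary 3 or any 1 testis. It was also lost in limma with quantile normalization (adjusted p = 0.0510), normexp background correction (adjusted p = 0.0733) and the authors' table without scaling (adjusted p = 0.388). The count of 5 became 3 without DKO ovary 2 and 8 without DKO ovary 3. No listed gene was called between *Smad4* (Stella) and control ovaries by limma, where 0.271% of all genes tested were. Of the 56, 9 had an unadjusted p under 0.05 in limma, where 19.7% of all genes tested had.

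Promoter sequence was available for 25 of the 35 members, in 34 entries of 250 bases before to 50 after the start (RefSeq, GRCm38.p6). *Fgf8* and *Etv4* have no entry. The 150 bases before the start of *Dusp6* and *Spry1*, the 2 inhibitors called between the sexes, are printed with the motif found there in capitals, CCAAT on the opposite strand for *Dusp6* (chr10:99263081-99263230, plus strand) and GGGCGG, a GC box, for *Spry1* (chr3:37639797-37639946, plus strand).
Dusp6: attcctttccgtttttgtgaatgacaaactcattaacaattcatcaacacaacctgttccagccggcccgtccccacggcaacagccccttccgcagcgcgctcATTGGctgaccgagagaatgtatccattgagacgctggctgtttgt
Spry1: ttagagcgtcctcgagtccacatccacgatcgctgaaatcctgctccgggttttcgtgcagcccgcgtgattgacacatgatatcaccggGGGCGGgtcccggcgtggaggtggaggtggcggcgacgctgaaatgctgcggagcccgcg
Both strands of the full entries, here called windows, were searched for 4 motifs. These were CCGGAA, the core that ETS factors such as the Etv proteins bind, TGANTCA, the AP-1 site of FOS and JUN, GGGCGG and CCAAT. The ETS core lay in 4 of the 34 member windows, those of *Fgf5*, *Fgf12*, *Fgfr4* and *Spry2*, and in 14.9% of all 32851 windows. TGANTCA lay in 2 of the 34, those of *Fgf12* and *Fgf13*, and in 7.81% of all windows. CCAAT lay in 11 of the 34 (10 members) and in 37.4% of all, and GGGCGG in 21 of the 34 (17 members) and in 35.7% of all. Of the 9 members higher in testes that have a window, 2 held CCGGAA. A match is a run of letters and not a shown binding site.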

How the data were processed

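Total RNA of 12 pairs of E14.5 gonads (4 groups of 3) was labelled with Cy3 and hybridised by the authors to Agilent whole mouse genome arrays, 4 per slide on 3 slides, and scanned with Feature Extraction 11.0.1.1. The authors deposited the scanner files, whose processed signal is a background-subtracted intensity, and a table of the same intensity values rounded to 3 significant digits, with no further scaling seen in the values.

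From the 43379 non-control spots (41174 probes) per array, log2 of the processed intensity minus the array's 75th percentile was taken. Outlier spots were dropped, and the remaining spots were averaged per probe and the probes per gene. A probe was kept if some group had it well above background on all 3 arrays (27311 probes, 18844 genes). All 12 arrays were fitted in limma 3.58.1 (R 4.3.3) without a block, p-values were adjusted by Benjamini-Hochberg over all genes tested, and a call needed an adjusted p under 0.05 and 1.5-fold. Where a group was not above background on any array, "at least" folds take the higher of the probe's signal and the array's lowest signal well above background. Figures were drawn with matplotlib 3.10.9.

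Replicate arrays correlated at r = 0.976 to 0.994. The number of arrays limits the precision, and p-values measure only the spread between these samples. In a test on simulated data, 200 of 18812 genes were changed in 1 group, with noise drawn independently for each array. For testes against control ovaries 66% of 2-fold and 92% of 4-fold changes were recovered, and 73% and 81% for *Smad4* (Stella) against control ovaries. For DKO ovaries 67% and 86% were recovered against control ovaries, 54% and 91% against *Smad4* (Stella) ovaries, and 68% and 94% against testes. In the real data the share of all genes called ran from 0.271% for *Smad4* (Stella) against control ovaries to 34.0% for testes against control ovaries. The rates therefore do not carry over to comparisons with another share of changed genes.

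The members, gene lists and tests were chosen with earlier results of these data known. Named were all members, and of the listed pathway genes the largest called differences, of which 1 gene is not reported here. Alternatives were the background correction, the normalization, the filter, the probe summary, the slide or replicate number as a block, the samples in the fit, the thresholds, the t-test of the methods, and the fit without 1 array at a time.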

Additional observations from a re-analysis of the deposited data

Results flagged for a closer look

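For 3 members the effects of the DKO and of the *Smad4* (Stella) genotype, each against the same control ovaries, differed by a test of the difference itself. This test is the comparison of the 2 mutant groups in limma, in which 8.45% of all genes tested were called. For *Fgf8* the DKO effect exceeded the other by 1.78 on the log2 scale (adjusted p = 0.0147), for *Fgf13* by 0.67 (adjusted p = 0.0298), and for *Fgf11* the DKO effect was lower, by -0.71 (adjusted p = 0.0473). In each case all 3 DKO ovaries lay on 1 side of all 3 *Smad4* (Stella) ovaries, as they did for 31.2% of all genes tested. With the slide as a block none of the 3 passed (0.93, 0.45 and -0.84, adjusted p = 0.173, 0.347 and 0.0873). Groups of 3 arrays are too small to flag a single outlying array.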

How the results depend on the processing

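Under the 12 arrays' main setting 13, 0, 3, 4 and 11 members and 23, 0, 5, 2 and 13 listed pathway genes were called, for testes against control ovaries, *Smad4* (Stella) against control, DKO against control, DKO against *Smad4* (Stella) ovaries, and DKO ovaries against testes. *Dusp6* and *Spry1* stayed called between testes and control ovaries in every setting, and no member was called for *Smad4* (Stella) against control ovaries in any. Normexp background correction gave 2, 0, 0, 0 and 3 members and 11, 0, 3, 0 and 4 pathway genes, moved the median of all genes by up to 0.28, and turned *Fgf10* (0.58 for DKO against control, 0.70 against *Smad4* (Stella) ovaries), *Fgf21* (0.38) and *Spred1* (0.14) for DKO against control, and *Fgf12* (0.0703) and *Fgfr1* (0.21) for DKO against testes. It also turned *Fos* (0.0977) for DKO against control, where the median of all genes was 0.26. Relative to all genes the 6 member values were 0.32, 0.42, 0.12, -0.11, -0.10 and 0.04. The mean signal without background correction gave 6, 0, 1, 1 and 7 members, with 4 higher and 2 lower in testes, and 3, 1 and 8 pathway genes in the 3 DKO comparisons, and turned *Fgf10* between the mutants to 0.0901. The cause was not tested.

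The authors' table, taken with no scaling, moved the median of all genes by 0.40 for *Smad4* (Stella) ovaries and gave 11 pathway genes for testes (8 higher, 3 lower), 0 members and 1 pathway gene for DKO against control, 0 and 0 between the mutants, and 5 and 4 against testes. For DKO against control ovaries quantile normalization gave 1 member, no filter 3 pathway genes, and a fit of the 2 groups alone 0 members and 3 pathway genes. Between the mutants no filter gave 1 member and 1 pathway gene, as did the fit of the 2 groups alone, and quantile normalization, the stricter filter or the brightest probe gave 1 pathway gene. Without the filter 9 members were higher and 5 lower in testes. At 2-fold the counts were 9 pathway genes for testes, 0 members and 2 pathway genes for DKO against control, 1 member between the mutants, and 6 and 5 against testes. The adjusted p alone gave 12, 5 and 25 pathway genes in the 3 DKO comparisons. The methods' t-test unadjusted gave 1 pathway gene for *Smad4* (Stella) and 3 for DKO against control, and after Benjamini-Hochberg 0 members and 1 pathway gene for DKO against control and 0 and 0 between the mutants.

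The slide as a block left 1 member called between the mutants. Same-numbered samples showed no clear common deviation (r between -0.18 and 0.15). With groups of 3 arrays this check cannot exclude a pairing by number. The replicate block left 3 members and 1 pathway gene called between the mutants and 4 members for DKO against control. Leaving out each array gave 11 to 13 members and 21 to 25 pathway genes for testes, 0 for *Smad4* (Stella), 1 to 4 and 3 to 8 for DKO against control, 0 to 4 and 1 to 3 between the mutants, and 9 to 11 and 12 to 15 against testes. Dim probes limit what can be said of *Fgf10* and *Fgf21*.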
